A study of Mus musculus with 6 samples.

Results

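The classical and type II cadherins described here were 10 genes, Cdh2, Cdh4, Cdh8, Cdh9, Cdh10, Cdh11, Cdh12, Cdh13, Cdh18 and Cdh22, chosen by name out of the 55401 genes in the count files. Bulk RNA-seq was performed on the dorsal hippocampus of WT littermates of the Ts65Dn line, at 4 months of age, and the question was what the loss of the long noncoding RNA Snhg11 does to transcription. An antisense oligonucleotide (ASO, a chemically modified strand that leads RNase H to cut the RNA it pairs with) was injected into the dorsal dentate gyrus (DG), 50 μg per hemisphere, and the tissue was taken 3 days later. Control-ASO was given to 3 samples and Snhg11-ASO to the other 3, and no uninjected tissue is in the comparison. The trisomic animals of that line are not part of it either. The ASO was infused in 1 region, whereas the RNA came from the whole dorsal part of the hippocampus, so cells that took up little ASO were sequenced together with those that took up more. The labels do not give the sex of these mice, and the paper describes the injected mice whose hippocampal RNA was taken as male.

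Cadherins are calcium-dependent adhesion proteins that hold the membranes of neighboring cells together, and at synapses they line the junctions that flank the active zone. Type I (classical) cadherins such as N-cadherin (Cdh2) and R-cadherin (Cdh4) bind strongly to themselves. Type II cadherins bind both to themselves and to particular relatives, and in the hippocampus different neuron types carry different sets of them. Both types join the actin cytoskeleton through catenins, while T-cadherin (Cdh13) has no transmembrane or cytoplasmic part and is tethered to the membrane by a lipid (GPI) anchor. All are made with a prodomain that must be cleaved off before they can adhere.

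The difference between the 3 kinds of cadherin can be read in the first codons of the mature protein, where type I cadherins insert 1 tryptophan side chain into the partner molecule and type II cadherins insert a pair. The 36 coding bases (12 codons) that follow the predicted furin cleavage motif are shown for 9 members, from the GENCODE M21 transcripts, with the tryptophan codon TGG in capitals.
Cdh4: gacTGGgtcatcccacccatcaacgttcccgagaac
Cdh13: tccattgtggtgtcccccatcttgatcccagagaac
Cdh12: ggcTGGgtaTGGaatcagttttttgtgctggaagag
Cdh10: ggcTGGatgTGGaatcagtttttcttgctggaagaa
Cdh9: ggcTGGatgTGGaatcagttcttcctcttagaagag
Cdh18: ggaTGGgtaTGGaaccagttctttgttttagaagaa
Cdh8: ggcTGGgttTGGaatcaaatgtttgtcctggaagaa
Cdh11: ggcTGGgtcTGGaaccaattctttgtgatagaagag
Cdh22: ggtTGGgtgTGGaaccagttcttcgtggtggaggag
The 7 type II members held TGG at codons 2 and 4, Cdh4 at codon 2 alone, and Cdh13 at neither. Between type II members 69.4% to 86.1% of these bases were identical, while Cdh4 and Cdh13 shared 36.1% to 44.4% with them. On GRCm38 the Cdh12 stretch lies in exon 2 of Cdh12-201 (chr15:21237843-21237878, plus strand) and the Cdh13 stretch in exon 4 of Cdh13-201 (chr8:118757416-118757451, plus strand). The genes of 4 members, Cdh9, Cdh10, Cdh12 and Cdh18, lie within 6.75 Mb of each other on chromosome 15.

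The libraries held 28951250 to 34293344 read pairs counted on genes in Control-ASO and 38556524 to 43997537 in Snhg11-ASO, so every Snhg11-ASO library was deeper. Each member was counted 175 to 5755 times in a sample, all 10 passing the filter on low counts. Snhg11 was at 551, 436 and 209 CPM (counts of a gene relative to the scaled total of its library) in Control-ASO. It was at 139, 65.4 and 69.4 CPM in Snhg11-ASO, and here as below values are in the order of replicates 1, 2 and 3, so the groups did not overlap (log2 fold change −2.13, SE 0.43, adjusted p = 0.395, edgeR; adjusted p = 6.2e-05, DESeq2, and at most 0.00205 without any 1 Snhg11-ASO sample). Markers of the labelled tissue were present, since Prox1 of dentate granule cells was at 82.1 to 167 CPM and Neurod6 of CA pyramidal neurons at 75.6 to 173 CPM, and markers of neocortex and thalamus were also present in every library. Snhg11-ASO replicate 1 stood apart, with a Spearman correlation of 0.955 to 0.959 to the other libraries, which correlated with each other at 0.979 to 0.991. Summed levels of 10 microglial markers were 242 CPM in that library and 331 to 758 CPM in the other 5. The summed level of 14 choroid plexus markers ranged from 43.6 to 2025 CPM in Control-ASO and from 78.3 to 1369 CPM in Snhg11-ASO. None of the genes on any cell type list used here was at 0 in a library.

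Compared per length, the members fell into an abundant and a less abundant set. In Control-ASO the highest levels, in CPM per kilobase of merged exons (mean ± SD, n = 3), were those of Cdh11 (13.5 ± 1.38), Cdh8 (12.1 ± 1.03), Cdh9 (11.7 ± 0.549) and Cdh2 (11.0 ± 0.803), and neighbors in this order overlapped. Cdh10 followed at 4.77 ± 0.303, below every sample of Cdh2 and above every sample of Cdh12 at 4.01 ± 0.287. Cdh12, Cdh13 (3.81 ± 0.685), Cdh18 (3.33 ± 0.966) and Cdh22 (2.67 ± 0.358) overlapped each with the next. R-cadherin, Cdh4, was lowest at 1.15 ± 0.536, with all its samples below those of Cdh22. In Snhg11-ASO the same 4 genes were at the top, at 10.6 to 12.6, and Cdh4 was again lowest at 0.695 ± 0.172. Between them, Cdh18, Cdh12, Cdh22 and Cdh13 had means of 2.47 to 2.52 and overlapped. Cdh10 was above Cdh12 in each Snhg11-ASO sample (2.57 and 1.94 in replicate 1, 5.13 and 2.97 in replicate 2, 4.76 and 2.62 in replicate 3), although with replicate 1 the ranges of these genes overlapped.

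**Figure D1:**
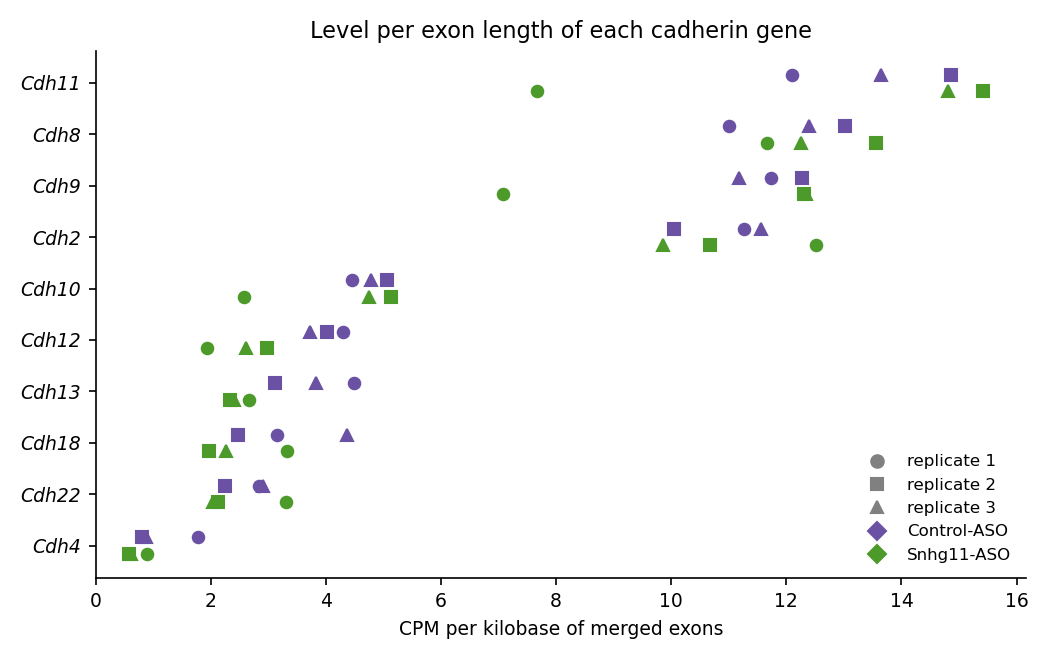
Level of each cadherin per length in the dorsal hippocampus. The horizontal axis gives CPM per kilobase of merged exons from 0, symbols mark replicates 1 to 3 of Control-ASO (purple) and Snhg11-ASO (green), and genes are in order of their Control-ASO mean. Cdh11, Cdh8, Cdh9 and Cdh2 had means above 10.5 in both groups while Cdh4 was lowest in both.

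Against this order, the comparison of the groups set apart only the cadherins of the 2 longest genes. The most negative fold change was that of Cdh4, whose groups overlapped. The T-cadherin Cdh13 and the type II cadherin Cdh12 were lower in every Snhg11-ASO sample than in every Control-ASO sample, at 64.7% and 62.5% of the control mean. The other 8 members overlapped between the groups. Cdh2 and Cdh8 were at 101% and 103% of the control mean. With edgeR (quasi-likelihood, p adjusted by Benjamini-Hochberg over the 19969 genes that passed the filter), 0 of the 10 members had an adjusted p below 0.05, as had 0% of all genes, and the adjusted p of members ran from 0.460 to 0.990. At an unadjusted p below 0.05 there were 2 members, both lower, beside 8.11% of all genes (4.43% lower and 3.68% higher). Groups that did not overlap were found for 2 members and for 15.4% of all genes (7.7% lower and 7.73% higher). DESeq2 called the same 2 members and 258 genes in all, or 1.44% (0.885% lower) of the 17966 genes to which it gave an adjusted p. Without Snhg11-ASO replicate 1 it again called both, beside 2.35% of all genes (1.59% lower), without replicate 2 only Cdh12, beside 1.64% (0.797% lower), and without replicate 3 neither, beside 1.3% (0.57% lower). Log2 fold changes were below 0 for 8 members, beside 48.3% of all genes, and above 0 for 2, with a median of −0.18 beside a median of 0.01 over all genes. With 3 samples against 3, an exact permutation test cannot go below p = 0.1. In bulk tissue, fewer cells of a type and less RNA per cell cannot be told apart.

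**Figure D2:**
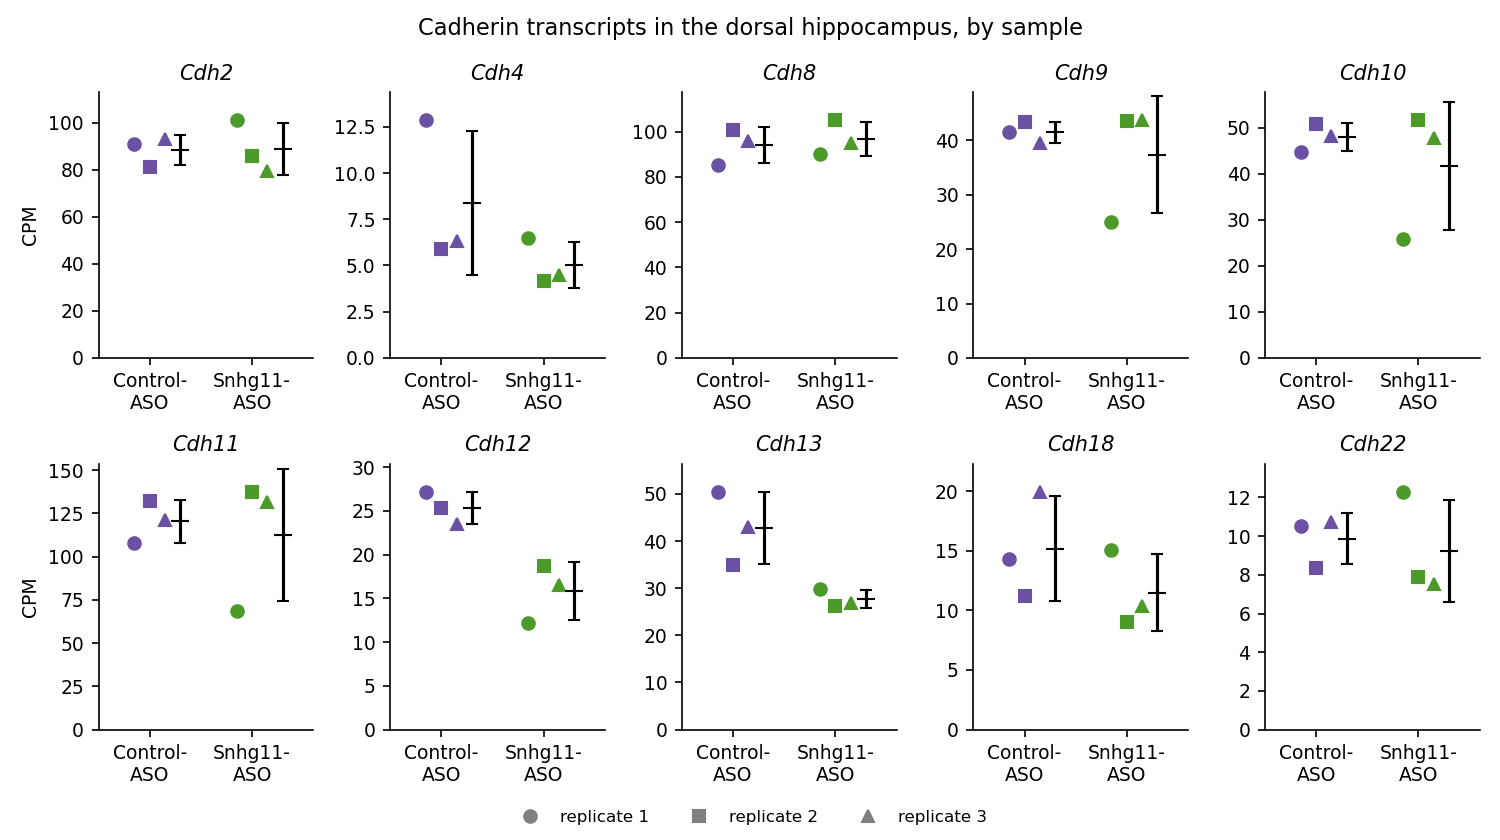
Level of each cadherin in every sample. The vertical axis gives CPM from 0, symbols mark replicates 1 to 3 of Control-ASO (purple) and Snhg11-ASO (green), and bars give the mean ± SD (n = 3); Cdh12 and Cdh13 have no overlap between groups, and Snhg11-ASO replicate 1 is the lowest point of Cdh9, Cdh10 and Cdh11.

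Cdh13, the GPI-anchored T-cadherin known as a receptor for adiponectin and, in hippocampus, from inhibitory synapses, was at 50.4, 35.0 and 43.1 CPM in Control-ASO. It was at 29.9, 26.3 and 26.9 CPM in Snhg11-ASO. The lowest control sample stood above the highest Snhg11-ASO sample, and the knockdown samples differed little among themselves (mean 42.8 ± 7.70 against 27.7 ± 1.90 CPM, SD, n = 3). The log2 fold change was −0.63 (SE 0.15, 95% interval −0.98 to −0.27, unadjusted p = 0.00404, adjusted p = 0.460, edgeR; adjusted p = 0.0311, DESeq2). The gene covers 1041 kb of chromosome 8 (118283733 to 119324921, plus strand). Summed levels of 8 interneuron markers moved in the same direction, with 438 to 482 CPM in Control-ASO and 366 to 427 CPM in Snhg11-ASO, and their part in the result was not tested.

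Cdh12, a type II cadherin known mainly from the brain, was at 27.1, 25.3 and 23.5 CPM in Control-ASO. It was at 12.2, 18.7 and 16.5 CPM in Snhg11-ASO, all below the control samples, with the lowest value in replicate 1. The mean was 25.3 ± 1.81 CPM in Control-ASO and 15.8 ± 3.31 CPM in Snhg11-ASO (SD, n = 3), with a log2 fold change of −0.68 (SE 0.17, 95% interval −1.09 to −0.27). The edgeR test gave an unadjusted p of 0.00589 and an adjusted p of 0.483, and DESeq2 an adjusted p of 0.04997, just below the threshold. Without Snhg11-ASO replicate 1 the difference was −0.52 for Cdh12 and −0.68 for Cdh13 on the log2 scale. Cdh12 is the longest member gene, covering 1140 kb of chromosome 15 (20449265 to 21589533, plus strand).

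Reads that fall between the exons of a long gene are not counted for it, but annotated genes lying inside it on the same strand collect some of them. The members overlapped 30 other annotated genes, 17 of them on the same strand. Of those, 10 passed the filter, and the 13 on the opposite strand had at most 4 counts. The 3 tested genes that overlap Cdh12 were lower in every Snhg11-ASO sample than in every Control-ASO sample. This was so for 7.7% of all genes tested and for 51.1% of the genes over 500 kb, where Cdh12 and Gm49685 belong. Gm49685, which starts just upstream of Cdh12 and shares 198 exonic bases with it, was at 4.72, 4.25 and 4.63 CPM in Control-ASO and at 1.65, 2.44 and 2.57 CPM in Snhg11-ASO (log2 fold change −1.03, SE 0.23, adjusted p = 0.442, edgeR; adjusted p = 0.0122, DESeq2). Its DESeq2 call was lost without Snhg11-ASO replicate 2 (adjusted p = 0.0559). Gm49182, an unconfirmed transcript 135.5 kb into Cdh12, was at 4.72, 3.48 and 6.62 CPM in Control-ASO and at 2.28, 2.73 and 2.93 CPM in Snhg11-ASO (−0.90, SE 0.28, adjusted p = 0.530). Gm38234, a similar entry 730.9 kb into the gene, had only 5 to 20 counts in a sample and a log2 fold change of −0.91 (SE 0.43, adjusted p = 0.647). Gm49685 itself covers 531 kb, so its counts are not limited to the start of Cdh12. STAR's unique assignment leaves reads on bases shared by Gm49685 and Cdh12 out of both. The 3 tested genes that overlap Cdh8 had log2 fold changes of −0.23 to −0.06 and the 4 that overlap Cdh11 −0.39 to −0.08, and in all 7 the groups overlapped. Among all genes tested, 15.4% had groups that did not overlap. Counts on the strand opposite to the members reached at most 20 in a sample.

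**Figure D3:**
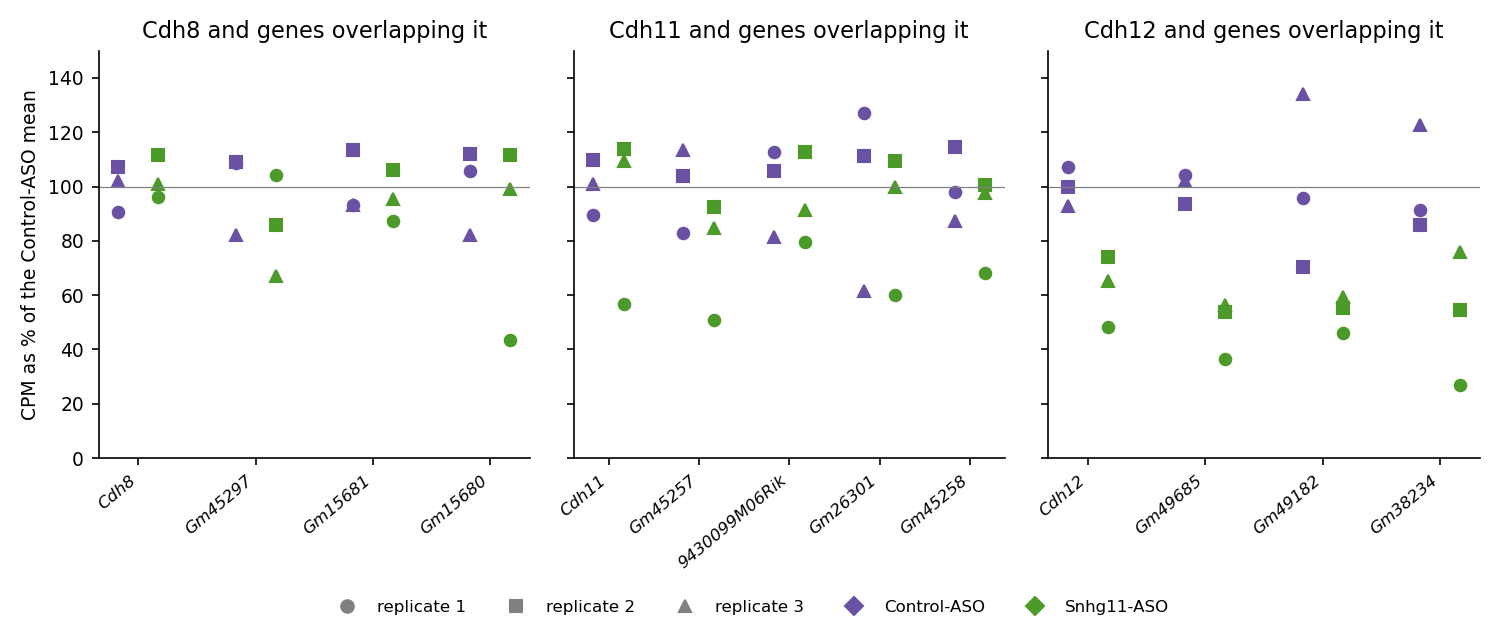
Cdh8, Cdh11 and Cdh12, each with the tested genes that overlap it on the same strand. The vertical axis gives each gene's CPM in each sample as a percent of its Control-ASO mean, symbols mark replicates 1 to 3 and colors the groups; Cdh12 and its 3 overlapping genes have no overlap between groups, and Cdh8, Cdh11 and theirs do.

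Cdh18, a type II cadherin of the nervous system and the third member gene over 500 kb, was at 14.3, 11.2 and 19.9 CPM in Control-ASO. It was at 15.1, 8.997 and 10.4 CPM in Snhg11-ASO, where replicate 1 lay above the controls' lower values, so the groups overlapped (log2 fold change −0.40, SE 0.27, 95% interval −1.05 to 0.24, adjusted p = 0.734, edgeR). The highest sample, Control-ASO replicate 3, was also the one with the highest summed level of 7 neocortical markers, 254 CPM against 115 to 166 CPM in the other 5 libraries. Without that sample the log2 fold change of Cdh18 was −0.16. All 7 neocortical markers had a log2 fold change below 0, beside 48.3% of all genes, with a median of −0.62. Their summed levels were 153 to 254 CPM in Control-ASO and 115 to 160 CPM in Snhg11-ASO, so these ranges overlapped. The part of neocortical RNA in the values of Cdh18, and in those of Cdh12 and Cdh13, was not tested. Cdh18 covers 925 kb of chromosome 15 (22549022 to 23474418, plus strand).

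Among the type I cadherins, Cdh4 was at 12.8, 5.89 and 6.35 CPM in Control-ASO and at 6.48, 4.19 and 4.47 CPM in Snhg11-ASO. Control-ASO replicate 1 was far above the others, and Snhg11-ASO replicate 1 lay just above the remaining controls. The log2 fold change of −0.73 was the most negative of the 10, but its error was also the largest (SE 0.35, 95% interval −1.55 to 0.10, adjusted p = 0.652, edgeR), and it was −0.29 without Control-ASO replicate 1. Choroid plexus markers summed to 2025 CPM in Control-ASO replicate 1 and to 1369 CPM in Snhg11-ASO replicate 1. Each was the highest library of its group, as for Cdh4. Control-ASO replicate 3 reached 1313 CPM of these markers but had Cdh4 near Control-ASO replicate 2, where they summed to 43.6 CPM. The part of these markers in the level of Cdh4 was not tested. Cdh2, the N-cadherin of most excitatory synapses, was at 90.9, 81.1 and 93.3 CPM in Control-ASO and at 101, 86.1 and 79.5 CPM in Snhg11-ASO. Its groups overlapped fully, with a log2 fold change of 0.01 (SE 0.12, adjusted p = 0.990) and a 95% interval of −0.27 to 0.28. Cdh2 covers 220 kb of chromosome 18 on the minus strand and Cdh4 457 kb of chromosome 2 on the plus strand.

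Cdh9, Cdh10 and Cdh11 shared a pattern in which 1 library was low and the rest were level. Cdh9, which acts in the formation of mossy fiber synapses on CA3 neurons, was at 41.5, 43.5 and 39.6 CPM in Control-ASO and at 25.02, 43.5 and 43.7 CPM in Snhg11-ASO. Cdh10, which can pair with Cdh9, was at 44.8, 50.9 and 48.2 CPM in Control-ASO and at 25.8, 51.6 and 47.8 CPM in Snhg11-ASO. Cdh11, also known from osteoblasts and meninges, was at 108, 132 and 121 CPM in Control-ASO and at 68.3, 137 and 132 CPM in Snhg11-ASO. In each case Snhg11-ASO replicate 1 was below every control, and the other Snhg11-ASO samples were within or above the control range. Log2 fold changes were −0.15 (SE 0.21) for Cdh9, −0.20 (SE 0.25) for Cdh10 and −0.10 (SE 0.26) for Cdh11, with adjusted p of 0.849 to 0.935. Without that library they were 0.07, 0.05 and 0.16. That library was also low in markers of some other cells. Its median log2 deviation from the mean of all libraries was −1.20 over the microglial list. It was −1.11 over 7 oligodendrocyte genes and −0.58 over 9 astrocyte genes. The part of these cells in the cadherin values was not tested.

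The remaining type II members differed little between the groups. Cdh8, which marks subsets of neurons, was at 85.2, 101 and 96.0 CPM in Control-ASO and at 90.2, 105 and 94.8 CPM in Snhg11-ASO. Its log2 fold change was 0.04 (SE 0.10, adjusted p = 0.934), and with a 95% interval of −0.20 to 0.28 it was the most narrowly bounded member. Cdh22, the pituitary and brain cadherin, was at 10.5, 8.35 and 10.7 CPM in Control-ASO and at 12.3, 7.87 and 7.54 CPM in Snhg11-ASO, where replicate 1 was the highest of all 6 samples. The groups overlapped, with a log2 fold change of −0.10 (SE 0.23, 95% interval −0.64 to 0.44, adjusted p = 0.929). Cdh22 lies 6.73 Mb from Snhg11 on chromosome 2, and Cdh4 lies 21.1 Mb from it.

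**Figure D4:**
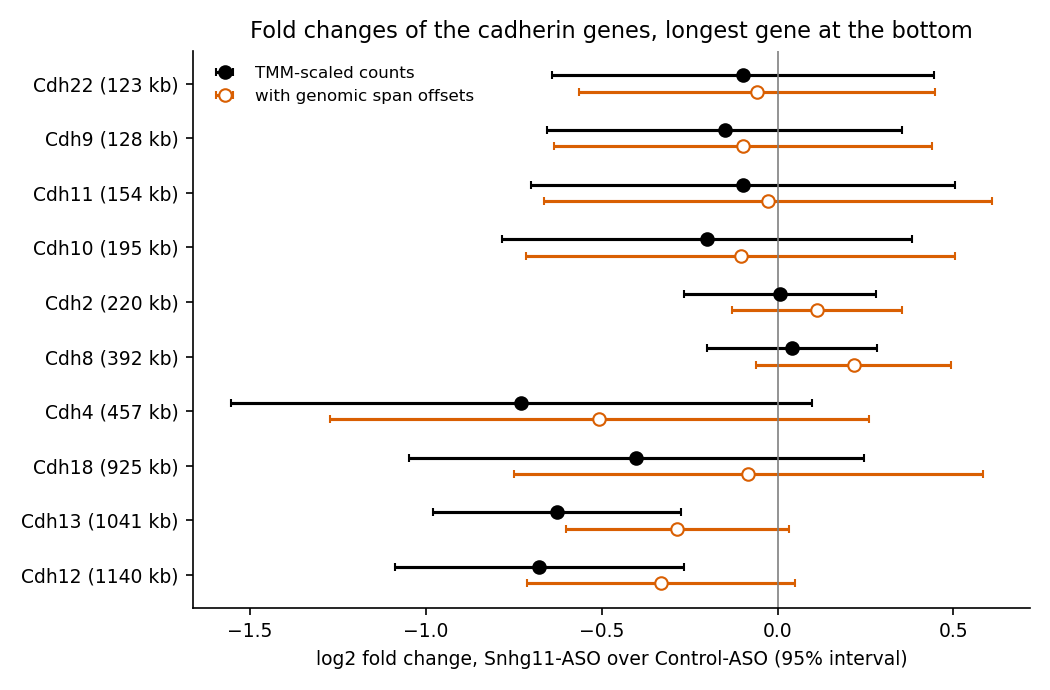
Difference between groups for each cadherin. The horizontal axis gives the log2 fold change of Snhg11-ASO over Control-ASO from edgeR (filled) and from edgeR with offsets for genomic span (open), bars are 95% intervals, and genes are in order of span; the intervals of Cdh12 and Cdh13 lie below 0 without the offsets and reach 0.05 and 0.03 with them.

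The members differ widely in genomic span, measured from the first to the last annotated base, and the fold change of all genes moved with it. The 15163 genes of up to 50 kb had a median log2 fold change of 0.02, and 46.7% of them were lower in Snhg11-ASO. Among 3796 genes of 50 to 200 kb, the class of Cdh9, Cdh10, Cdh11 and Cdh22, the median was 0.01. It was −0.13 in the 763 genes of 200 to 500 kb, to which Cdh2, Cdh4 and Cdh8 belong, with 70.1% lower. The 223 genes over 500 kb, among them Cdh12, Cdh13 and Cdh18, had a median of −0.37. Of these 90.1% were lower and 51.1% had all Snhg11-ASO samples below all Control-ASO samples. The 2 members whose groups did not overlap are thus in a class in which this was as frequent as its absence. Cdh4 (−0.73) and Cdh8 (0.04) lay on either side of the median of their class.

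Each sample's trend with span was then fitted and subtracted by offsets. The 223 genes over 500 kb, the class of Cdh12, Cdh13 and Cdh18, kept a median log2 fold change of −0.088. The medians of the other classes were −0.0078 to 0.026. With the offsets the log2 fold change was −0.33 for Cdh12 (95% interval −0.71 to 0.05, unadjusted p = 0.0783, adjusted p = 0.689, edgeR) and −0.28 for Cdh13 (−0.60 to 0.03, unadjusted p = 0.0710, adjusted p = 0.682, edgeR). It was −0.08 for Cdh18, −0.51 for Cdh4 and 0.22 for Cdh8. With these offsets 8 members were below 0, and 0 members had an unadjusted p below 0.05 (edgeR). The median over the members was −0.09, beside −0.00063 over all genes. The shares of all genes below 0, or with such a p, are not given with the offsets, so these counts have no background.

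**Figure D5:**
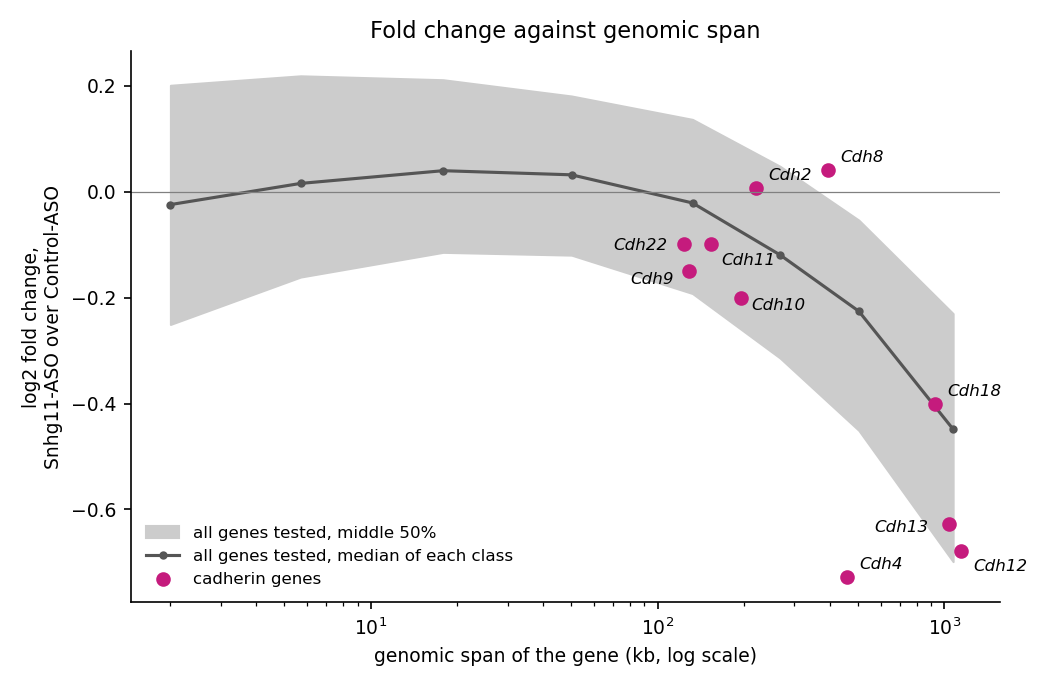
Log2 fold change of Snhg11-ASO against Control-ASO by genomic span. The horizontal axis is genomic span in kb on a log scale, the line and gray band are the median and the middle 50% of all genes tested in classes of span, and labelled points are the 10 cadherins; Cdh12, Cdh13 and Cdh18 are at the long end, where the whole band is below 0.

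The proteins that cadherins work with were read from lists of named genes. Of 15 catenins and junction scaffolds, all tested, 7 had a log2 fold change below 0 and 8 above, with a median of 0.01. At an unadjusted p below 0.05 (edgeR) there were 2, both lower, beside 8.11% of all genes (4.43% lower). Ctnnd2, the neural delta-catenin that binds the cadherin tail near the membrane, was at 149, 138 and 138 CPM in Control-ASO and at 112, 108 and 93.8 CPM in Snhg11-ASO (−0.44, SE 0.10, adjusted p = 0.428, edgeR). DESeq2 gave Ctnnd2 an adjusted p of 0.0183, and 0.000728, 0.0984 and 0.129 without Snhg11-ASO replicate 1, 2 and 3, so that its call was lost without replicate 2 or 3. Ctnna2, the neural alpha-catenin that links cadherins to actin, was at 102, 119 and 113 CPM in Control-ASO and at 66.4, 91.8 and 83.3 CPM in Snhg11-ASO (−0.47, SE 0.14, adjusted p = 0.507). The groups did not overlap for these 2 genes, nor, with higher values in Snhg11-ASO, for Jup (0.36, SE 0.17), Ctnna1 (0.32, SE 0.14) and Ptpn1 (0.47, SE 0.23), beside 15.4% of all genes. Jup, Ctnna1 and Ptpn1 were named after their values were seen. In each of them Snhg11-ASO replicate 1 was the highest library, and the other Snhg11-ASO samples lay closer to the controls. Jup was at 25.5, 17.9 and 18.05 CPM in Snhg11-ASO and at most at 16.5 CPM in Control-ASO. Ctnna1 was at 76.7, 57.04 and 60.1 CPM against at most 56.5 CPM. Ptpn1 was at 63.4, 38.4 and 34.996 CPM against at most 34.93 CPM. Ctnnd2 and Ctnna2 cover 857 and 1098 kb, and each had a log2 fold change of −0.14 with the span offsets. Ctnna3 and Magi2, of the same list, cover 1574 and 1478 kb. Their groups overlapped, with log2 fold changes of −0.37 (SE 0.37) and 0.01 (SE 0.12) without the offsets. Both were named for their span after their values were seen. Of all genes over 500 kb, 50.2% were lower at an unadjusted p below 0.05 (edgeR, without the offsets).

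Of 12 other cadherin genes, 9 passed the filter, 5 below 0 and 4 above, with a median of −0.04 and 0 at an unadjusted p below 0.05. The most abundant of these, Cdh20 and Cdh19, differed by −0.37 (SE 0.18, adjusted p = 0.660, edgeR) and 0.25 (SE 0.18, adjusted p = 0.749). All 4 nectins had values above 0, with a median of 0.06 and Nectin2 at 0.01. Nectins are immunoglobulin-type adhesion molecules, some of which assemble with cadherins at the contacts of mossy fibers. Nectin1 and Nectin3 took either sign when samples were left out. The most abundant, Nectin3 and Nectin1, had overlapping groups and log2 fold changes of 0.04 (SE 0.16) and 0.08 (SE 0.22). Among 10 enzymes of cadherin maturation and shedding, 5 were below 0 and 5 above. Furin, a protease that removes the prodomain, was at 24.1, 21.4 and 21.1 CPM in Control-ASO and at 81.8, 27.4 and 29.2 CPM in Snhg11-ASO. Its groups did not overlap, but its log2 fold change of 1.05 (SE 0.42, adjusted p = 0.592) was 0.35 without Snhg11-ASO replicate 1.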

How the data were processed

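Total RNA was sequenced from stranded libraries. Per the labels, the authors aligned read pairs with STAR 2.5.2a to mm10 (GRCm38), and the deposited files hold raw counts per gene for both strands and for each strand, neither normalized nor pooled. Rsubread is named in the methods as the counter, but the tables have the form that STAR writes, and the annotation release is not given in the sources used here. Pairs that map to several places or to several genes are not counted. The 4 summary lines of each file (43.5% to 51.4% of pairs) name no gene and were left out.

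Counts of the reverse strand were used, which held 96.2% to 96.8% of stranded counts. GENCODE M21 matched 55141 of 55401 identifiers and gave symbols, positions and sequences. Proteins were not used here. Genes were filtered with filterByExpr (minimum count 10), leaving 19969, scaled by TMM, and tested with edgeR 4.0.16 (R 4.3.3) quasi-likelihood, adjusted by Benjamini-Hochberg at 0.05. The common biological coefficient of variation was 0.266. SE is the fold change over the square root of F, and 95% intervals use 6.99 degrees of freedom. The step was tested on simulated data. The 10 members, the lists of partners and of cell type markers, and the tests were chosen with earlier results of these data known. Named genes are the members, Snhg11, and from each partner list the genes with an unadjusted p below 0.05, or else the 2 most abundant. Genes inside Cdh12, Prox1 and Neurod6 were named after their values were seen.

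Correlations across the groups between libraries sharing a replicate number, each taken relative to its group average, were 0.297, 0.179 and 0.103. Without the same values for libraries of different numbers, they cannot decide whether the numbers pair the samples. Neither the labels nor the methods state a pairing. The values printed are from the fit without a replicate term, and the fit with the replicate number as a block is an alternative. Samples are separate hippocampi. The methods state that 1 Snhg11-ASO sample was left out as an outlier without naming it, and all were kept here. Alternatives were DESeq2 1.42.0, other scalings and filters, both strands, a replicate block, span offsets and leaving out each sample.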

Additional observations from a re-analysis of the deposited data

How the results depend on the processing

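Across 18 alternatives Cdh4, Cdh12, Cdh13 and Cdh18 stayed below 0. edgeR called 0 genes and 0 members in the main analysis. DESeq2 called 258 genes and 2 members (Cdh12 and Cdh13), and without Snhg11-ASO replicate 1, 2 or 3 it called 347, 275 or 223 genes and 2, 1 or 0 members. Leaving out each sample in edgeR called 0 to 2 genes and 0 members. The adjusted p ranged from 0.0106 to 0.979 for Cdh12 and from 0.00832 to 0.979 for Cdh13. The median log2 fold change of the members was −0.23 with the replicate block, −0.091 with span offsets, −0.12 with both, −0.29 to −0.17 leaving out each sample in edgeR, and −0.23, −0.27 and −0.29 in DESeq2 without Snhg11-ASO replicate 1, 2 and 3. The replicate block changed no call.

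Members near 0 took either sign. Cdh2 was at −0.016 with upper-quartile scaling, −0.0041 with no filter, −0.094 to 0.080 leaving out each sample, and −0.098 in DESeq2 without Snhg11-ASO replicate 1. Leaving out each sample gave −0.034 to 0.094 for Cdh8, −0.28 to 0.071 for Cdh9, −0.38 to 0.051 for Cdh10, −0.27 to 0.16 for Cdh11, −0.36 to 0.027 for Cdh22, −0.089 to 0.31 for Nectin1 and −0.094 to 0.19 for Nectin3. DESeq2 without Snhg11-ASO replicate 1 gave 0.068 for Cdh9, 0.048 for Cdh10, 0.16 for Cdh11 and −0.035 for Nectin1. Without replicate 2 it gave −0.022 for Cdh8, 0.0025 for Cdh22 and −0.093 for Nectin3, and without replicate 3 it gave 0.029 for Cdh22. The causes were not tested. With 3 samples a group, differences smaller than the intervals given are not resolved.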

Other observations

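Outside the members, Cdh5, the VE-cadherin of endothelial cells, was at 8.33, 7.91 and 8.61 CPM in Control-ASO and at 20.8, 8.71 and 8.73 CPM in Snhg11-ASO. The groups did not overlap, but only Snhg11-ASO replicate 1 stood well above the controls. Cdh3, the P-cadherin, had 72, 0 and 20 counts in Control-ASO and 61, 6 and 2 counts in Snhg11-ASO, and choroid plexus markers in the same libraries summed to 2025, 43.6 and 1313 CPM and to 1369, 139 and 78.3 CPM. Both genes were chosen after their values were seen.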
